A study of Mus musculus with 15 samples.

Results

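The genes described here are 9 genes of the ERK pathway known to be repressed by the transcription factor Capicua (CIC): Etv1, Etv4, Etv5, Ccnd1, Dusp4, Dusp6, Spry2, Spry4 and Spred1. They were chosen by name from that knowledge, with earlier results of these data known. They are 9 of 24420 gene symbols in the count table. All 9 had enough counts to be among the 16808 genes tested. Bulk RNA-seq libraries of mouse cerebellum were made from 3 groups of 5. The wild type group (WT) and the Atxn1[82Q] group (82Q) were both strain FVB/nJ and 9 weeks old. The third group carried Atxn1[82Q] together with CalphaLoxM120A, an altered allele of the catalytic subunit of protein kinase A that Prkaca encodes (82Q_M120A), on a mixed background of c57Bl/6J and FVB/nJ, and was 8 weeks old. No group had the kinase allele without Atxn1[82Q], so in the comparisons of 82Q_M120A the kinase allele, the strain and the age cannot be told apart. The design text calls the Atxn1 allele a knockin, and its promoter and the cells that make the protein are not stated in the labels. Nothing in the labels says whether the 5 libraries of a group came from separate animals, so p-values here describe the spread among these libraries, which may be technical.

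CIC is a DNA-binding repressor that sits in a complex with ATXN1 or its relative ATXN1L. Growth factors acting on receptor tyrosine kinases switch on the RAS, RAF, MEK and ERK kinases in turn, and active ERK phosphorylates CIC, which lifts the repression of its targets. Many of these targets act back on the pathway: the ETS factors carry the signal to further genes, while the dual-specificity phosphatases, Sprouty proteins and SPRED1 dampen it. In spinocerebellar ataxia type 1 the ATXN1 protein has an expanded polyglutamine stretch and still binds CIC, and damage falls mainly on Purkinje cells, the neurons that carry the output of the cortex of the cerebellum.

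CIC recognises short octamers, and the promoters of Dusp6 and Spry2 are shown because they were the member windows that held such letters. RefSeq promoter windows on GRCm38.p6 (250 bases before to 50 after a start, 300 in all) were on hand for 5 of the 9 genes, in 7 windows: Spred1, Dusp6, Etv1, Spry2 and Etv5. Etv4, Ccnd1, Dusp4 and Spry4 had none. The search used 4 octamers, TGAATGAA, TGAATGGA, TCAATGAA and TCAATGGA, on both strands. Of 32851 windows of this length in the table, 3.84% held at least 1 match and 0.183% at least 2. The lines give 230 bases before and 20 after each start, 5′ to 3′ on the gene's strand, with the matches in capitals.
Dusp6, chr10:99263001-99263250, plus strand: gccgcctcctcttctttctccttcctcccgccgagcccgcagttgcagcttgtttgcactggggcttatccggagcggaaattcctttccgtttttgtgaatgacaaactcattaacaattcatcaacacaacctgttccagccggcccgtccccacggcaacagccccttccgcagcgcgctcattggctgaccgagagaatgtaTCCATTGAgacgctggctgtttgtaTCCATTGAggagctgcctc
Spry2, chr14:105896800-105897049, minus strand: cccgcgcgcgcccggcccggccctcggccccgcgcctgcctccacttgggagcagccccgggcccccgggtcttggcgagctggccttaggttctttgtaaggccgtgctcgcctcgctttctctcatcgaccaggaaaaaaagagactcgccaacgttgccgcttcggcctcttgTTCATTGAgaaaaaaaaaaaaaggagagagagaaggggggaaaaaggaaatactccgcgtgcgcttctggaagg
The Dusp6 window held 2 matches, both TCCATTGA as printed, which is TCAATGGA on the other strand, at -24 to -17 and at 2 to 9 counted from the start as position 1. Spry2 had 1 match, TTCATTGA as printed, at -54 to -47. No match was found in the windows of Spred1, Etv1 or Etv5. A match is only a match of letters in this window, and binding was not measured.

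In GENCODE M21 on mm10 all 9 are protein-coding genes. Etv1 lies at chr12:38779380-38870484, Etv4 at chr11:101769742-101785371 and Etv5 at chr16:22381309-22439719. Ccnd1 is at chr7:144929931-144939925, Dusp4 at chr8:34807297-34819894 and Dusp6 at chr10:99263231-99267489. Spry2 is at chr14:105891947-105896819, Spry4 at chr18:38586247-38601415 and Spred1 at chr2:117121374-117182279. Counts were per whole gene, so exons and isoforms were not separated.

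Library totals ran from 38.3 M to 99.4 M counts (M, mega), and levels are given as counts per mega counts (CPM) with TMM scaling. At this depth the scarcest value of a member was 255 counts, for Dusp4 in WT-5, where counting error alone is 6.26% (the square root of the count, as a share of it). Libraries are named by group and order of their columns. Atxn1 reads did not separate the groups, with 52.9 ± 6.2 CPM for WT, 56.5 ± 1.75 for 82Q and 53.9 ± 2.14 for 82Q_M120A (SD, n = 5), and a count per gene symbol does not check the expanded allele. Prkaca, named because its allele was altered, was at 168 ± 3.6, 164 ± 5.76 and 145 ± 5.54 CPM. It was called lower in 82Q_M120A against WT (log2 -0.21, edgeR adjusted p = 5.1e-05) and against 82Q (-0.18, 0.000633). Purkinje cell markers were lower in both 82Q groups: all 10 passed the test in each, and their summed level was 10320 to 11860 CPM in WT, 3867 to 4773 in 82Q and 3846 to 5159 in 82Q_M120A. Granule cell markers, which define cerebellar tissue, summed to 6373 to 7422 CPM in WT, 6555 to 7209 in 82Q and 7216 to 8019 in 82Q_M120A, where 7 of 10 were called higher than in WT and 4 of 10 higher than in 82Q. Microglia markers summed to 132 to 147, 212 to 225 and 198 to 241 CPM. In bulk tissue, fewer cells of a type and less RNA per cell cannot be told apart, and which cells make the 9 transcripts was not measured. Choroid plexus RNA varied widely between libraries. Its 7 markers summed to between 37.6 and 2612 CPM in WT (median 2254), 43.1 and 2803 in 82Q (306) and 22.9 and 2061 in 82Q_M120A (35.9). Ttr, the main choroid plexus transcript, was not called between WT and 82Q (edgeR adjusted p = 0.817), between WT and 82Q_M120A (0.401) or between the other two (0.660). It was at 1000 CPM or more in 4 WT, 2 82Q and 1 82Q_M120A libraries, and under 100 CPM in WT-4, 82Q-1, 82Q-4 and 4 of the 82Q_M120A libraries. All 7 choroid plexus markers were detected in every library.

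Of the 9 genes, 4 fell in 82Q and 6 in 82Q_M120A when each was set against WT, while Ccnd1 rose in both. A gene was called when its adjusted p in edgeR's quasi-likelihood test (Benjamini-Hochberg over all tested genes) was under 0.05. In 82Q against WT, 5 of 9 were called, against 18.7% of all tested genes. Etv4, Etv5, Dusp4 and Dusp6 fell (4 of 9, where 10.1% of all genes were lower), and Ccnd1 rose (1 of 9, where 8.63% were higher). For 82Q_M120A against WT, 7 were called, against 36.4% of all genes: Etv1, Etv4, Etv5, Dusp4, Dusp6 and Spry2 fell (6 of 9, with 17.8% of all genes lower) and Ccnd1 rose (1 of 9, with 18.6% higher). Between 82Q_M120A and 82Q, only Ccnd1 was called, 1 of 9 against 18.9% of all genes, and it was higher, as were 10.3% of genes. None of the 9 was called lower there, where 8.63% of all genes were, and 2 of the 8 not called had an unadjusted p under 0.05, Etv1 (0.0379) and Spry2 (0.0291). Groups did not overlap for 4 of 9 in 82Q against WT (16.6% of all genes), 6 of 9 in 82Q_M120A against WT (25.3%) and 1 of 9 in 82Q_M120A against 82Q (12.1%). The median log2 fold change over the 9 was -0.21, -0.27 and -0.09 in the 3 comparisons, beside 0.0127, 0.0061 and -0.0027 over all tested genes. Each pair of comparisons shares a group of libraries, so the similar values in the 2 comparisons with WT are not independent of each other.

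**Figure D1:**
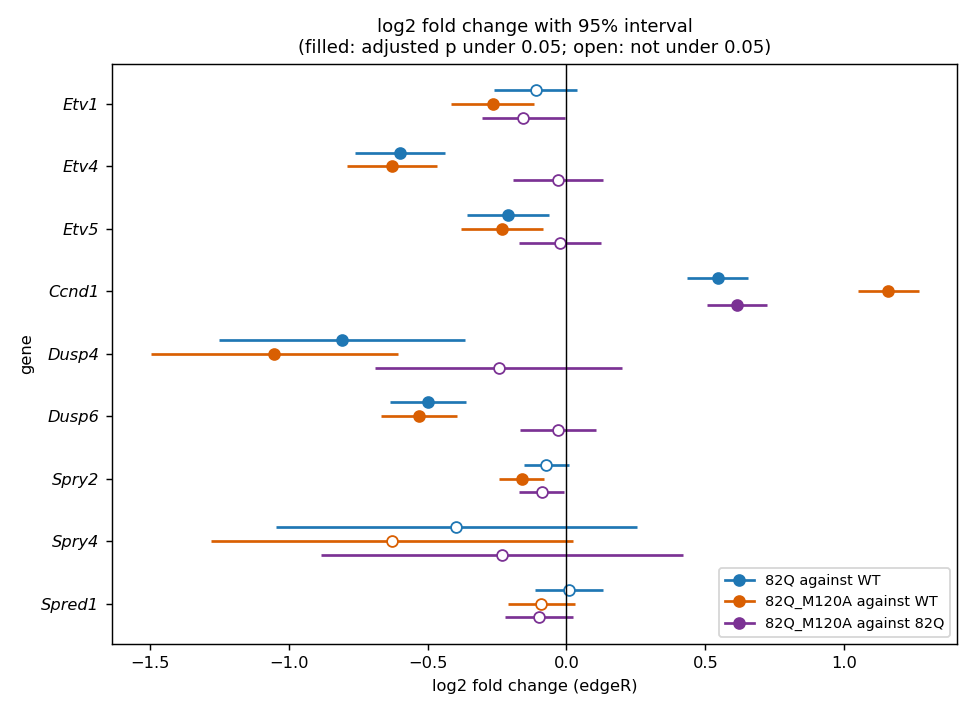
log2 fold change (x axis, edgeR) of the 9 genes (y axis) in the 3 comparisons, shown by colour, with bars for the 95% interval. Filled points had an adjusted p under 0.05: Etv4, Etv5, Dusp4 and Dusp6 lie left of 0 in both comparisons with WT, and Ccnd1 lies right of 0 in all 3. Etv1 and Spry2 are filled, left of 0, only in 82Q_M120A against WT.

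Etv1, Etv4 and Etv5 encode the PEA3 group of ETS transcription factors, which relay receptor tyrosine kinase signals to target genes. Etv4 had the clearest fall of the 3. It was at 19.1, 19.5, 18.5, 15.8 and 19.4 CPM in WT-1 to WT-5. The 82Q libraries held 12.1, 12, 13.2, 12.9 and 10.6 CPM, and the 82Q_M120A libraries 13.3, 12.5, 10.5, 12.3 and 11.1 CPM. Every WT library was above every library of the other groups, and the lowest WT library, WT-4, lay closest to them. The log2 fold change was -0.60 (SE 0.07, adjusted p = 1.06e-05) in 82Q and -0.63 (SE 0.07, adjusted p = 3.29e-06) in 82Q_M120A, 1.51-fold and 1.54-fold lower than WT. The 2 groups with Atxn1[82Q] overlapped, with a log2 difference of -0.03 (95% interval -0.19 to 0.13, adjusted p = 0.831).

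Etv5 fell by less. WT held 77.9, 69.7, 78.1, 85.0 and 75.4 CPM in column order, and 82Q held 69.2, 62.2, 66.6, 67.7 and 68.0. WT and 82Q did not overlap, but the lowest WT library (69.7) and the highest 82Q library (69.2) lay within 1 CPM. The 82Q_M120A libraries were at 67.8, 57.6, 58.0, 70.7 and 74.4 CPM, 2 of them inside the WT range. In 82Q the log2 fold change was -0.21 (SE 0.07, adjusted p = 0.0388), and in 82Q_M120A it was -0.23 (SE 0.07, adjusted p = 0.0128). The 82Q call was lost on leaving out any of 8 of the 10 libraries (all but WT-2 and 82Q-1), with adjusted p of at most 0.0949, and with scaling by library size only (0.0856).

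Etv1, the member of this group with the highest level per length, fell in 82Q_M120A. WT was at 412, 393, 383, 460 and 374 CPM, 82Q at 385, 338, 411, 385 and 353, and 82Q_M120A at 303, 344, 306, 365 and 363. The 82Q libraries spread across both other groups, and all 82Q_M120A libraries were below all WT libraries. Against WT the log2 fold change was -0.11 in 82Q (95% interval -0.26 to 0.04, adjusted p = 0.300) and -0.27 in 82Q_M120A (SE 0.07, adjusted p = 0.00594). Between 82Q_M120A and 82Q it was -0.15 (adjusted p = 0.131). With each library's choroid plexus marker score in the model, Etv1 was the member whose calls changed. Its values were then -0.16 (adjusted p = 0.0332) in 82Q against WT and -0.23 (adjusted p = 0.00538) in 82Q_M120A against 82Q.

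Ccnd1, which encodes cyclin D1, the partner of CDK4 and CDK6 in leaving G1, went the other way and rose in steps. The 5 WT libraries were at 25.3, 29.4, 29.0, 27.4 and 24.4 CPM. In 82Q the values were 39.9, 39.4, 39.3, 41.7 and 37.5 CPM, and in 82Q_M120A 58.5, 61.7, 57.0, 60.9 and 64.5 CPM. No library of a group overlapped another group, in the order WT, 82Q, 82Q_M120A. Expression was 1.46-fold WT in 82Q (log2 0.55, SE 0.05, adjusted p = 2.5e-07) and 2.23-fold in 82Q_M120A (log2 1.16, SE 0.05, adjusted p = 1.77e-11). From 82Q to 82Q_M120A it was 1.53-fold (log2 0.61, SE 0.05, adjusted p = 1.27e-07). All 3 calls held under 9 other ways of processing the counts, on leaving out each of 10 libraries and under 3 settings chosen after the data were seen, with log2 fold changes of 0.50 to 0.59, 1.11 to 1.21 and 0.58 to 0.63. Oligodendrocyte markers were also higher than WT in both 82Q groups, with 7 and 8 of 8 called. They summed to 5083 to 6128 CPM in WT, 6268 to 7576 in 82Q and 7051 to 7712 in 82Q_M120A. Between the 82Q groups these ranges overlapped, and 3 of 8 were called higher in 82Q_M120A. Against WT, in 82Q and 82Q_M120A, 2 and 3 of 6 oligodendrocyte precursor markers were called higher. Of 10 Bergmann glia and astrocyte markers, 4 and 3 were higher and 2 lower in each. Of 8 endothelial markers, 0 and 2 were higher and 1 lower in each. The part of any of these cell types in Ccnd1, and that of microglia, was not tested.

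Ccnd1 shares 1771 bases with LTO1, named Oraov1 in the table, on the opposite strand. Whether reads were counted by strand was not given in the sources used here. Oraov1, named for this overlap, did not rise: it was at 24.4 ± 0.337 CPM for WT, 23.3 ± 0.948 for 82Q and 18.7 ± 0.642 for 82Q_M120A (SD, n = 5). It fell by 0.38 on the log2 scale in 82Q_M120A against WT (adjusted p = 2.66e-07) and was not called in 82Q against WT (-0.06, adjusted p = 0.266). Neither of the related cyclin genes was called higher. Ccnd2, picked after its values were seen, was at 13.2, 12.3 and 9.69 CPM in the 3 groups and was not called (log2 -0.10 and -0.45 against WT, adjusted p = 0.741 and 0.0533). Ccnd3 fell by 0.20 in 82Q_M120A against WT (adjusted p = 0.00881).

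**Figure D2:**
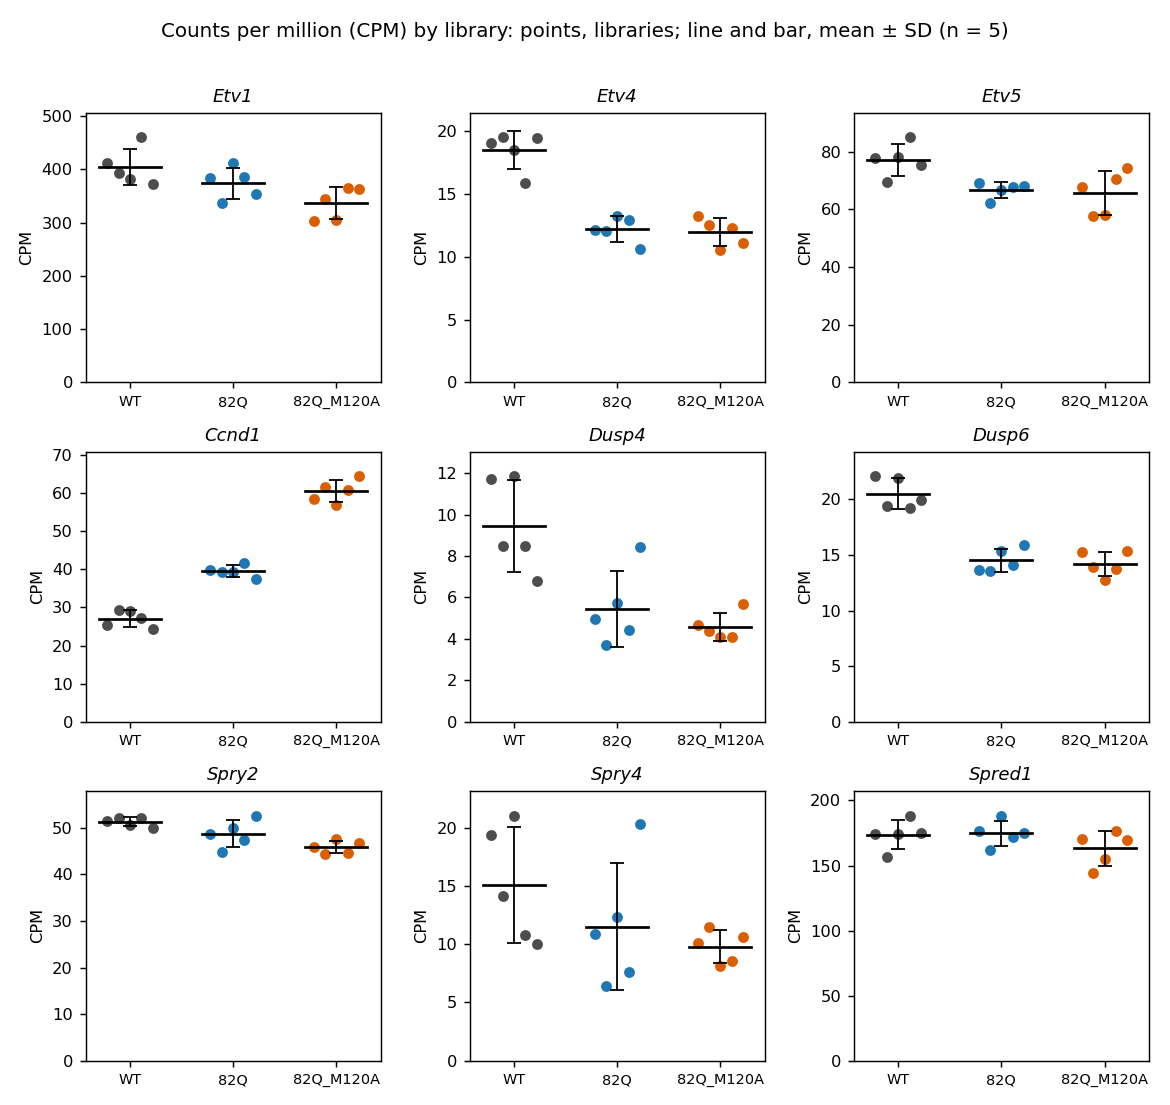
Expression in CPM (y axis, from 0) of each of the 9 genes in WT, 82Q and 82Q_M120A (x axis). Points are libraries and the black line and bar are mean and SD (n = 5). Ccnd1 climbs through 3 separate groups, Etv4 and Dusp6 drop to a common lower level in both 82Q groups, and Spry4 ranges from 6.41 to 20.3 CPM within 82Q.

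Dusp6 and Dusp4 encode dual-specificity phosphatases that remove phosphate from ERK, in the cytoplasm and in the nucleus respectively. Dusp6 fell to the same extent in both 82Q groups. WT was at 22.1, 19.4, 22, 19.2 and 19.9 CPM, 82Q at 13.7, 13.5, 15.3, 14.1 and 15.9, and 82Q_M120A at 15.3, 13.9, 12.8, 13.7 and 15.3. All WT libraries lay above all others. The log2 fold change was -0.50 (SE 0.06, adjusted p = 1.3e-05) in 82Q and -0.53 (SE 0.06, adjusted p = 3.42e-06) in 82Q_M120A, 1.41-fold and 1.44-fold lower. Between the 2 groups with Atxn1[82Q] it was -0.03 (95% interval -0.17 to 0.11, adjusted p = 0.778).

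Dusp4 had the widest fall of the 9, and the widest spread of the genes called. It was at 11.7, 8.5, 11.9, 8.48 and 6.82 CPM in WT. In 82Q the values were 4.96, 3.7, 5.72, 4.4 and 8.43 CPM, and in 82Q_M120A 4.67, 4.38, 4.07, 4.11 and 5.69 CPM. The library 82Q-5 reached into the WT range, while no 82Q_M120A library did. Dusp4 was 1.75-fold lower in 82Q (log2 -0.81, SE 0.20, adjusted p = 0.0113) and 2.07-fold lower in 82Q_M120A (log2 -1.05, SE 0.20, adjusted p = 0.000919). The CV within groups was 23.4% in WT, 33.6% in 82Q and 14.5% in 82Q_M120A, where counting error at the lowest counts gives 5.63% to 6.26%.

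With only the 7 libraries at Ttr of 1000 CPM or more, chosen after the data were seen, Etv4 and Dusp6 were at -0.76 and -0.51 on the log2 scale in 82Q against WT and were called (adjusted p = 2.51e-05 and 0.00184), and Dusp4 was at -0.71 and was not (0.404). The 82Q_M120A group is 82Q_M120A-1 alone there, so its spread is taken from the other groups and its values, called or not, rest on that library. Against WT, Etv4 was at -0.53, Dusp6 at -0.45, Dusp4 at -1.07, Etv5 at -0.15 and Spry2 at -0.16. With only the 7 libraries under 100 CPM, the WT group is WT-4 alone, which is assumed to vary like the other groups. Values against WT therefore rest on that library and are given here as log2 fold changes only. WT-4 is also the lowest WT library for Etv4. There, in 82Q against WT, Ccnd1 was at 0.58, Etv4 at -0.34, Dusp6 at -0.47, Dusp4 at -0.86 and Etv5 at -0.31. In 82Q_M120A against WT, Etv5 was at -0.38 and Spry2 at -0.19 with these libraries.

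The Sprouty and SPRED proteins inhibit receptor tyrosine kinase signalling upstream of RAF, and SPRED1 does so through neurofibromin. Spry2 fell slightly in 82Q_M120A. It was at 51.6, 52.1, 50.5, 52.2 and 50.1 CPM in WT, 48.8, 44.9, 50.1, 47.4 and 52.7 in 82Q, and 45.8, 44.5, 47.6, 44.6 and 46.7 in 82Q_M120A. All 82Q_M120A libraries were below all WT libraries, and 82Q spanned both. The log2 fold change was -0.16 in 82Q_M120A (SE 0.04, adjusted p = 0.00254, 1.12-fold lower) and -0.07 in 82Q (95% interval -0.15 to 0.01, adjusted p = 0.198). Between 82Q_M120A and 82Q it was -0.09 (adjusted p = 0.109), and without 82Q-2 it was -0.12 (adjusted p = 0.0299).

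Spry4 was not called in any comparison, and its libraries were far apart. WT held 19.3, 14.1, 21.0, 10.8 and 9.97 CPM, 82Q 10.8, 6.41, 12.3, 7.61 and 20.3, and 82Q_M120A 10.1, 11.5, 8.08, 8.54 and 10.7. The groups overlapped in each comparison, and the highest 82Q library, 82Q-5, was as high as the WT libraries WT-1 and WT-3. The log2 fold change was -0.40 (95% interval -1.05 to 0.25) in 82Q and -0.63 (-1.28 to 0.02, adjusted p = 0.120) in 82Q_M120A against WT, so a fall as large as that of Etv4 lies inside both intervals. With only the libraries of WT and 82Q_M120A in the fit, the call was made (adjusted p = 0.0429). The CV was 33.0% in WT, 47.5% in 82Q and 14.6% in 82Q_M120A.

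Spred1 was not called either, with a much tighter interval. WT was at 174, 157, 175, 188 and 175 CPM, 82Q at 177, 162, 188, 172 and 175, and 82Q_M120A at 170, 144, 155, 177 and 170. The 3 groups overlapped. The 95% interval of the log2 fold change was -0.11 to 0.13 in 82Q against WT, -0.21 to 0.03 in 82Q_M120A against WT and -0.22 to 0.02 between them. These intervals leave out a fall of the size of that of Etv4 or Dusp6.

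Per kilobase of annotated exon, a scale on which genes can be set side by side, the WT levels ran from Etv1 (30.4 ± 2.58 CPM per kb), Spred1 (25.6 ± 1.65), Spry2 (24.6 ± 0.456) and Etv5 (18.8 ± 1.34) down to Dusp6 (6.55 ± 0.45), Etv4 (5.94 ± 0.49), Ccnd1 (5.75 ± 0.466), Dusp4 (3.46 ± 0.81) and Spry4 (3.16 ± 1.04; SD, n = 5). Spred1 and Spry2, Etv4 and Ccnd1, and Dusp4 and Spry4 are neighbours whose levels lay within their SD of each other. Ccnd1 was 7th of the 9 in WT. In 82Q_M120A, at 12.9 ± 0.613 CPM per kb, it was 5th, above Dusp6, Etv4, Spry4 and Dusp4 and below Etv5 (16.0 ± 1.85). The length is that of all exons in the annotation, not of the isoform used in cerebellum.

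Within groups, some of the 9 rose and fell together from library to library. The log2 CPM deviations of the 15 libraries from their group means were compared for all 36 pairs, with a permutation test within groups and Benjamini-Hochberg adjustment over the pairs. Dusp4 and Spry4 were closest, with r = 0.94 (permutation p = 7e-05, adjusted 0.00252) and rho = 0.96 (permutation p = 2e-05, adjusted 0.00072). For Dusp4 and Dusp6, r was 0.82 (permutation p = 0.00038, adjusted 0.00684) and rho 0.81 (permutation p = 0.00111, adjusted 0.0200). Dusp6 and Spry4 had r = 0.76 (permutation p = 0.00199, adjusted 0.0179) and rho = 0.76 (permutation p = 0.00236, adjusted 0.0283). All 3 genes encode inhibitors of the pathway, and they lie on different chromosomes.

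A separate pair was Etv5 and Spred1, with r = 0.86 (permutation p = 0.00081, adjusted 0.00972) and rho = 0.77 (permutation p = 0.0059, adjusted 0.0531). Without the 2 libraries farthest from the median of the gene named at the start of each pair, r was 0.89 for Dusp4 and Spry4, 0.76 for Dusp4 and Dusp6, 0.71 for Dusp6 and Spry4 and 0.81 for Etv5 and Spred1. Within the 7 libraries at Ttr of 1000 CPM or more, and within the 7 under 100 CPM, these were 0.99 and 0.67, 0.88 and 0.82, 0.86 and 0.51, and 0.95 and 0.90. Those 4 pairs passed by r, and 27 of the 36 had a positive r. Etv4 and Ccnd1, though among the strongest in the group comparisons, were in none of the 4 pairs.

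**Figure D3:**
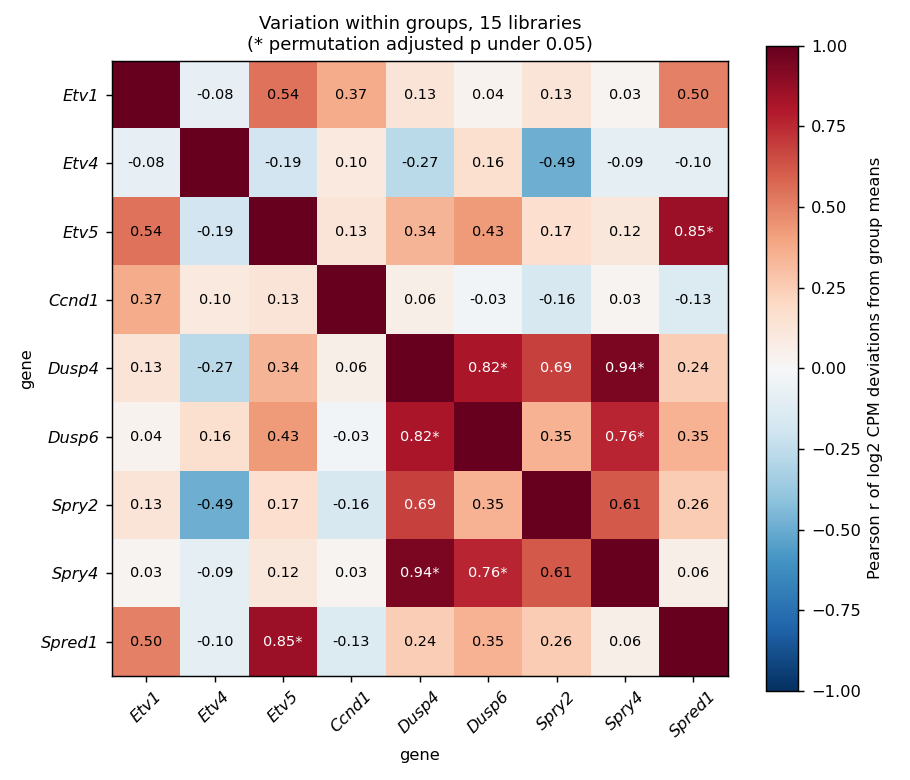
Pearson r (colour, printed in each cell) of the log2 CPM deviations from group means for each pair of the 9 genes (both axes), over 15 libraries. A star marks a permutation adjusted p under 0.05: Dusp4 with Spry4 and Dusp6, Dusp6 with Spry4, and Etv5 with Spred1.

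Spry4 was also set against the immediate early genes, the transcripts that neurons induce within minutes of activity. A score, the mean log2 CPM of 8 of them (Fos, Fosb, Junb, Egr1, Arc, Npas4, Nr4a1 and Ier2), was set against each of the 9 genes after the data were seen. For Spry4, r was 0.79 (permutation p = 0.00149, adjusted 0.0134 over 9) and rho 0.73 (permutation p = 0.0116, adjusted 0.0736). The 2 libraries farthest from the median score were 82Q-5 and WT-3, and without them r was 0.59. Within the 7 libraries at high Ttr, which include both 82Q-5 and WT-3, r was 0.88, and within the 7 at low Ttr 0.75. On leaving out WT-3 or 82Q-5 alone, none of the 9 genes passed by r. Dusp4 had r = 0.68 (permutation p = 0.0167, adjusted 0.0749) and rho = 0.70 (permutation p = 0.0164, adjusted 0.0736), so it did not pass the test. Without both WT-3 and 82Q-5 its r was 0.37. Within the libraries at high Ttr its r was 0.86, and within those at low Ttr 0.23. WT-1 was high in both Spry4 and Dusp4 (deviations 0.42 and 0.34) and not in the score (-0.06). Dusp6 had r = 0.37 (permutation p = 0.204, adjusted 0.476). Fos was at 45.6 CPM in WT-3 and 33.1 in 82Q-5, above every other library. Across the other 13 it ranged from 4.4 to 23.4 CPM.

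The score itself was lower in 82Q_M120A, at 2.67 to 3.26, than in WT, at 3.12 to 3.78, and 82Q ran from 2.95 to 3.77. With it as a covariate, chosen after the data were seen, 3 of the 9 were called in 82Q_M120A against WT: Ccnd1, Etv4 and Dusp6. Calls over all 16808 tested genes in this comparison went from 6118 to 3660. Dusp4 was then at -0.58 (adjusted p = 0.0568), Etv1 at -0.27 (0.0538), Etv5 at -0.25 (0.0705) and Spry2 at -0.12 (0.097), and Spry4 turned to 0.12 (0.779). Without the score, the values of Etv1, Etv5 and Dusp4 were -0.27, -0.23 and -1.05. The same covariate left 5 calls in 82Q against WT, where calls over all tested genes went from 3142 to 2989. Neuronal activity itself was not measured.

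**Figure D4:**
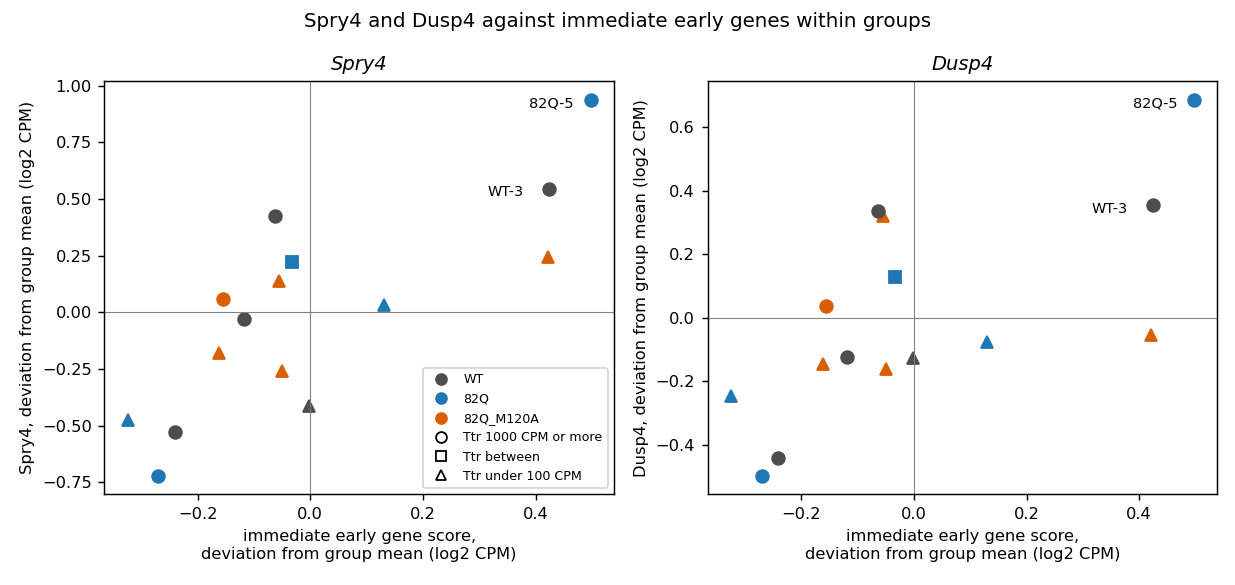
Deviation of Spry4 and of Dusp4 from the group mean (y axes, log2 CPM) against that of the immediate early gene score (x axes, log2 CPM) in 15 libraries. Colour gives the group and symbol the Ttr class, and the libraries 82Q-5 and WT-3 lie at the upper right of both panels.

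The genes whose deviations were most like those of Spry4, over the 15 libraries and all tested genes, were Nr4a1 (r = 0.94), Gpr3 (0.92) and Nr4a2 (0.90). For Dusp4 they were Gpr3 (0.91), Xpnpep2 (0.87) and Nr4a1 (0.86). Nr4a1 and Nr4a2 are nuclear receptors induced by activity, and Nr4a1 is 1 of the 8 genes in the score. Etv1 was most like Nova1 (0.96), a neuronal splicing regulator, Tmem57 (0.92) and Ctcf (0.92). Etv5 and Spred1 both had Parg among their 3 (0.89 and 0.93). Ccnd1 was most like 4930429B21Rik (0.90), Siglecf (0.81) and Rhoh (0.81). These are descriptions chosen as maxima over all genes, with no test.

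The other genes of the pathway were described from lists: 69 genes of the CIC complex, ERK ligands, receptors, the RAS-ERK cascade, other ERK output genes, relatives of the 9, and immediate early genes. In 82Q against WT, 19 of 69 were called (7 higher and 12 lower), in 82Q_M120A against WT 31 (9 and 22), and in 82Q_M120A against 82Q 12 (4 and 8), beside 18.7%, 36.4% and 18.9% of all tested genes. The repressor itself, Cic, was at 266, 247 and 252 CPM in WT, 82Q and 82Q_M120A and was not called. Atxn1l fell by 0.08 in 82Q (adjusted p = 0.0411).

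Among other ERK output genes, 3 of 11 fell and none rose in 82Q, and 4 of 11 fell and none rose in 82Q_M120A against WT (list medians -0.12 and -0.12). Of all tested genes, 10.1% and 17.8% were called lower in these comparisons. Ier3, an early response gene whose protein is an ERK substrate, went from 12.1 CPM in WT to 7.12 in 82Q and 8.33 in 82Q_M120A (log2 -0.76 and -0.53, adjusted p = 4.24e-08 and 2.44e-06). It was called higher in 82Q_M120A than in 82Q (0.23, adjusted p = 0.0148). Shc3, a neuronal adaptor protein, fell by 0.29 and 0.33, and Spry1 fell by 0.21 and 0.27. Spred3, a relative of Spred1, fell by 0.29 in 82Q_M120A against WT (adjusted p = 0.0246) and was at -0.12 in 82Q (0.436). Spred2 (0.00 and 0.10), Dusp5 (-0.28 and -0.12) and Phlda1 (-0.07 and 0.10), further ERK-induced genes, were not called. They were picked after their values were seen.

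Of the relatives of the 9, the Sprouty gene Spry3 had the largest fold change in both comparisons with WT. It was at 51.2, 48.4, 51.4, 49.4 and 52.1 CPM in WT, at 27.2, 24.4, 31.2, 25.4 and 28.6 in 82Q and at 28.8, 27.5, 25.3, 29.3 and 32.8 in 82Q_M120A. No library of either 82Q group reached the WT range. Spry3 fell by 0.88 in 82Q (SE 0.07, adjusted p = 1.95e-08) and by 0.81 in 82Q_M120A (SE 0.07, adjusted p = 3.65e-08), and was not called between the 82Q groups (0.07, adjusted p = 0.511). In all, 2 of 8 relatives were called in 82Q (Spry3 and Etv6, both lower) and 5 in 82Q_M120A against WT (Etv3 and Dusp7 higher, and Spry3, Etv6 and Ccnd3 lower). The shares called over all tested genes were 18.7% and 36.4%.

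In the cascade, 1 of 24 genes rose and 4 fell in 82Q against WT, and for 82Q_M120A 1 rose and 9 fell (list medians -0.02 and -0.07). Over all tested genes, 8.63% rose and 10.1% fell in 82Q, and 18.6% rose and 17.8% fell in 82Q_M120A against WT. The kinase gene Map2k1, which encodes MEK1, fell by 0.28 and 0.25 (adjusted p = 3.75e-07 and 9.06e-07), from 179 to 190 CPM in WT to 149 to 156 in 82Q and 149 to 161 in 82Q_M120A, without overlap. The adaptor Grb2 fell by 0.17 in each, and the docking protein gene Gab1 rose by 0.24 and 0.30. Between 82Q_M120A and 82Q, Frs2 fell by 0.16 and Sos1 by 0.10, and none of the 24 rose, where 10.3% of all tested genes did.

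Ligands moved in both directions. Hbegf fell by 0.18 in 82Q and 0.43 in 82Q_M120A against WT, and the neurotrophin gene Ntf3 rose by 0.69 and 0.92. Fgf1 was at 78.7, 83.1, 79.3 and 76.1 CPM in 82Q_M120A-1 to 82Q_M120A-4 and at 24.6 CPM in 82Q_M120A-5. The WT and 82Q libraries were at 24.4 to 28.9 CPM. The Fgf1 difference between 82Q_M120A and 82Q (log2 1.40, adjusted p = 0.00166) therefore rests on 4 of 5 libraries. The library 82Q_M120A-5 was also the highest of its group for 4 of the 9 genes: Ccnd1 (64.5 CPM, against 57.0 to 61.7 in the 4 libraries with high Fgf1), Etv5 (74.4 against 57.6 to 70.7), Dusp4 (5.69 against 4.07 to 4.67) and, by a small margin, Dusp6 (15.34 against 12.76 to 15.25). For the other 5 genes it lay inside the range of those libraries. How often this library was highest over all tested genes was not counted, and a relation of the 9 genes to Fgf1 was not tested. Among receptors, Fgfr1 (0.29), Ntrk2 (0.21) and Erbb4 (0.40) rose in 82Q, 3 of 8 with none falling, beside 8.63% of all tested genes higher. Erbb4 rose again in 82Q_M120A against 82Q (0.29, adjusted p = 0.0196), while Fgfr1 fell by 0.30 and Fgfr3 by 0.23.

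The immediate early genes split. Arc rose by 0.36 in 82Q and 0.46 in 82Q_M120A against WT. Npas4, Nr4a1 and Fos fell by 1.46, 1.07 and 1.70 in 82Q_M120A against WT (adjusted p = 0.0018, 0.00353 and 0.0283), and none of those 3 was called in 82Q (adjusted p = 0.624, 0.455 and 0.457). In 82Q_M120A against 82Q, Npas4, Nr4a1 and Fosb fell, 3 of 8 beside 8.63% of all tested genes lower, with a list median of -0.47. The number of called genes over all lists, 31 in 82Q_M120A against WT, was 16 with the score as a covariate. Calls over all tested genes went from 6118 to 3660 there.

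**Figure D5:**
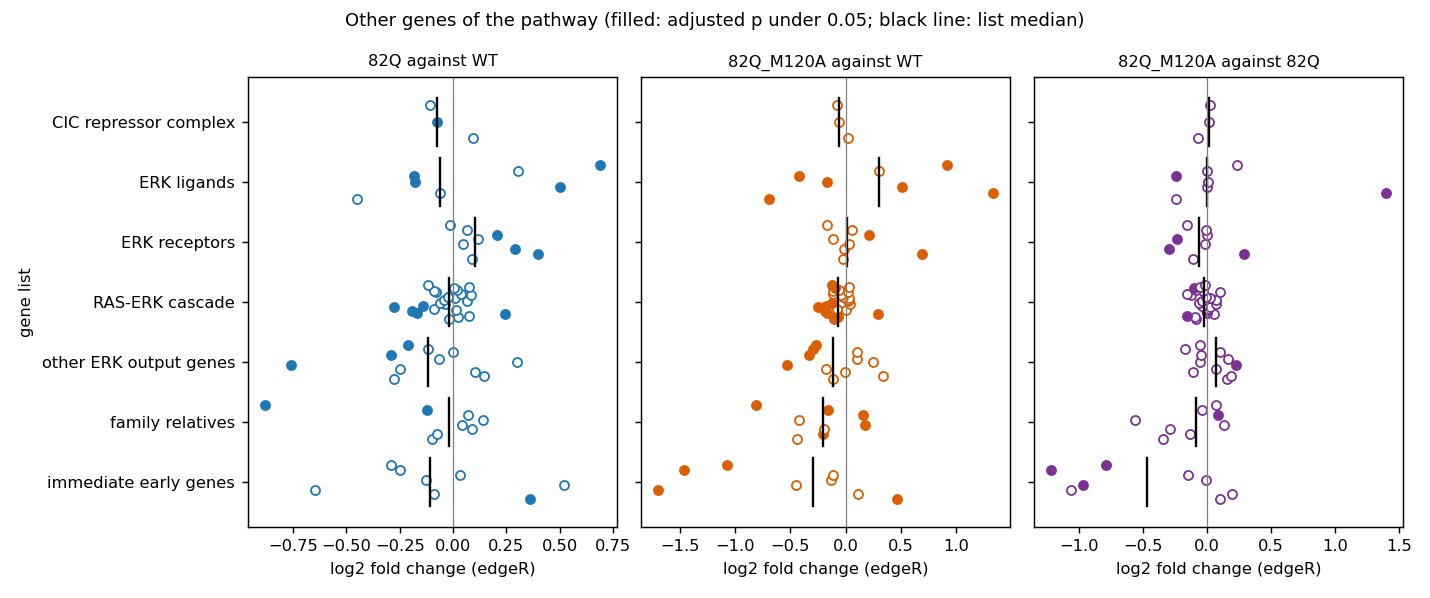
log2 fold change (x axes, edgeR) of each of 69 other pathway genes, by list (y axis), in the 3 comparisons. Filled points had an adjusted p under 0.05 and black lines are list medians. Fgf1 is the far right point in both 82Q_M120A panels, Spry3 and Ier3 are the far left points of the 82Q panel, and the immediate early list has a median of -0.47 in 82Q_M120A against 82Q.

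Because strain and group coincide in 82Q_M120A, the tested genes within 1 Mb of each member were counted. The neighbourhoods of Ccnd1, Spry4 and Etv4 are given here. Near Ccnd1, 2 of 9 were called in 82Q_M120A against 82Q (22.2%, beside 18.9% of all tested genes), Oraov1 and 1810010D01Rik. Against WT, 4 of its 9 were called in 82Q_M120A (44.4%, beside 36.4%). Near Spry4, 21 of 39 were called in 82Q_M120A against WT (53.8%, beside 36.4%). Most of those were clustered protocadherin genes, which share exons and are uncertain in counts per gene, and Fgf1 was also among the 21. Around Etv4, the neighbourhood with the most genes, 25 of 68 were called in 82Q_M120A against WT (36.8%, beside 36.4%). In 82Q against WT, 15 of 68 were called there (22.1%, beside 18.7%). The part of the mixed strain background in the values of the 9 genes cannot be told apart from that of the kinase allele.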

How the data were processed

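RNA-seq of cerebellum gave 15 libraries, 5 in each of 3 groups. The deposited table holds whole-number read counts per gene symbol. Per the submitters' processing notes, CASAVA 1.8, HISAT2 2.0.1, featureCounts, Subread, R 3.3.3 and DESeq2 1.14.1 were used with genome build mm10. Which annotation was used, whether strand was used and how multi-mapped reads were handled was not given in the sources used here. Column names give the group but no replicate number, and 0 columns were left unused. Chi-square divided by its degrees of freedom was 7.08 to 71.9 for the 30 pairs of libraries of a group, so replicates differed beyond counting error.

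Counts were fitted for all 15 libraries in R 4.3.3 with edgeR 4.0.16, which uses limma 3.58.1 (TMM factors, filterByExpr defaults, robust glmQLFit, group as the only factor, two-sided glmQLFTest). The p-values were adjusted by Benjamini-Hochberg over 16808 genes, which hold 99.99% of the counts. Standard errors are the absolute log2 fold change over the square root of F, and 95% intervals use 12 residual degrees of freedom. Log2 CPM for correlations used a prior count of 2. Permutation tests shuffled libraries within groups 100000 times. The fit and the correlation test were tested on simulated data. Alternatives were RLE factors, library size only, DESeq2 1.42.0, limma-voom, a filter at a mean of 1 CPM or no filter, fitting only the groups compared, a threshold of 0.01, a choroid plexus covariate, and leaving out each library. Python 3.11.15, numpy 2.4.6, scipy 1.17.1, pandas 2.3.3 and matplotlib 3.10.9 were used.

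The members and the lists were chosen with earlier results of these data known. Named genes are the 9 members, up to 4 called genes per list and comparison in order of adjusted p (where none was called, the 2 most abundant), and up to 3 genes most like each member. Other genes (Ccnd2, Spred2, Dusp5, Phlda1, Oraov1, 1810010D01Rik, Prkaca and the marker Ttr) were named outside this rule, after values had been seen.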

Additional observations from a re-analysis of the deposited data

Results flagged for a closer look

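In each group of 5 libraries the gap between the highest or lowest library and its neighbour was compared with the group's range for each of the 9 genes. Of 27 such groups, 1 stood out: Etv4 in WT, where WT-4 was at 15.8 CPM and the other WT libraries at 18.5 to 19.5 CPM. The gap was 0.721 of the range, just past the critical value of 0.71. Chance gives about 1 in 20 such groups. WT-4 was the 1 WT library with little choroid plexus RNA (Ttr at 18.3 CPM), and it was still above every 82Q and 82Q_M120A library for Etv4. With the choroid plexus score in the model, the log2 fold change of Etv4 in 82Q against WT was -0.57 (edgeR adjusted p = 2.52e-05). Among the libraries with Ttr under 100 CPM, where WT-4 alone is the WT group, it was -0.34.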

How the results depend on the processing

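No paired analysis was possible because the columns carry no replicate number. Across the other normalizations, tests, filters, thresholds and covariate, the number of the 9 genes called in 82Q against WT was 4 to 6. The exception was adjusted p under 0.01, with 3, where calls over all tested genes went from 3142 to 1823. The other settings gave 2918 to 4197 calls over all tested genes. Leaving out a library gave 4 to 5 of the 9, and 2567 to 3003 over all tested genes. Against WT, 82Q_M120A had 6 to 8 calls under these settings (4060 to 6754 over all tested genes) and 7 in each leave-out (5450 to 6009). In 82Q_M120A against 82Q the count was 2 with the choroid plexus covariate (3026 over all tested genes) and 1 to 2 over the leave-outs (2562 to 3210). The other pathway genes called numbered 5 at adjusted p under 0.01 (1645 over all tested genes). The 4 correlated pairs were 3 to 5 on leaving out a library, and the members related to the immediate early score 0 to 2.

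The immediate early covariate, chosen after the data were seen, moved the counts of the 82Q_M120A comparisons more. With it, 82Q_M120A against WT had 3 members and 16 pathway genes called, and 82Q_M120A against 82Q 6 pathway genes. Calls over all tested genes fell too, from 6118 to 3660 and from 3175 to 1578. At high Ttr, 82Q_M120A against WT had 4 and 19, and 82Q_M120A against 82Q 6 pathway genes. At low Ttr, 82Q against WT had 1 and 4, and pathway genes called were 12 and 3 in the other comparisons. Fewer libraries entered the Ttr fits, and calls over all tested genes fell in each comparison at high and at low Ttr. The lower counts there are therefore not particular to the members or the pathway genes. At low Ttr the WT group is WT-4 alone, and at high Ttr the 82Q_M120A group is 82Q_M120A-1 alone.

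Changes of sign fell on values that were not called. In 82Q against WT, Spred1 was at -0.0015 with the choroid plexus covariate, -0.0195 at high Ttr, -0.112 at low Ttr and -0.0246 to 0.039 over the leave-outs. For 82Q_M120A against WT, Spry4 was at 0.12 with the immediate early covariate and Spred1 at 0.0023 at high Ttr. In 82Q_M120A against 82Q, the choroid plexus covariate gave Etv4 0.0036 and Dusp6 0.0083. The immediate early covariate gave Dusp4 0.183, Dusp6 0.0319 and Spry4 0.468. High Ttr libraries gave Etv4 0.233, Etv5 0.0635, Dusp6 0.0562 and Spred1 0.0218, and low Ttr libraries Dusp6 0.0037 and Spry4 0.0724. Over the leave-outs Etv4 ran from -0.0753 to 0.0136, Etv5 from -0.0747 to 0.0199, Dusp6 from -0.0645 to 0.005 and Spry4 from -0.383 to 0.0706. The cause of these changes was not tested. Depth was not limiting for the 9 genes, whose lowest count in a library was 255.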
